A study of Mus musculus with 8 samples.

Results

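Annexins are calcium-dependent proteins that bind acidic phospholipids on the inner face of membranes. A conserved core carries the calcium sites and a variable amino-terminal tail sets the partners of each family member. Ahnak is a very large scaffold protein under the plasma membrane that binds the complex of annexin A2 with the S100 protein S100a10, and in myeloid cells annexin A1 is known as an abundant mediator of the resolution of inflammation. The transcripts described here are those of Anxa1, Anxa2, Anxa3, Anxa4, Anxa5, Anxa6, Anxa7 and Ahnak, 8 of the 18193 genes named on the array, measured by 21 of its 45037 probe sets other than controls. All probe sets that the platform annotation assigns to 1 of these symbols and to no other were taken. Of the 9 genes listed, Anxa11 had 0 such probe sets, since its probe set is shared with other symbols, and it is not described.

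The genes were measured in MLL-AF10 acute myeloid leukaemia, which is driven by a fusion of the histone methyltransferase gene MLL with AF10. Bone marrow stem and progenitor cells positive for c-kit had been transduced with retrovirus, immortalized and transplanted into syngeneic recipients, given in the labels as CD57BL/6, after sub-lethal irradiation. Leukaemic splenocytes of 4 mice, known by the title endings _948, _951, _952 and _953, were sorted by flow cytometry into a c-kit-high fraction (CD117pos) and one low or negative for it (CD117neg). Every mouse contributed 1 array per fraction, giving 4 CD117pos and 4 CD117neg arrays, and both fractions of a mouse share the fusion gene, the host and its irradiation. Age, sex and the number of separate transductions are not stated in the labels, and host cells of the spleen may be in either fraction. The genes were chosen on their CD117pos minus CD117neg differences in earlier results of these arrays. That difference is therefore a description: calls at the threshold are counted beside those of the whole array, no p of that contrast is given for these genes, and nothing is supported with the calls.

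Values are intensities on a linear scale, and differences are CD117pos minus CD117neg in log2(intensity + 16) with their SE from limma with the mouse as a block. Kit, the sorted receptor, measured 751 ± 127 in CD117pos and 28.6 ± 9.73 in CD117neg arrays (SD, n = 4 each). Array medians were 27.5 to 31.1 in CD117pos and 31.1 to 32.8 in CD117neg arrays, and a probe set is called dim where both fraction means lie below 30.3, the mean of those medians. The CD117pos array of mouse _951 stood apart. Across probe sets its correlation with the other CD117pos arrays was 0.928 to 0.93, against 0.985 to 0.987 among those others and 0.978 to 0.988 among CD117neg arrays. Where this array alone is left out below, the fit has no mouse block and keeps the CD117neg array of mouse _951. Those values are therefore not paired. None of the 5 myeloid lineage markers checked was dim. Itgam, Cd33, Spi1 and Ptprc were lower in CD117pos cells and Mpo, a granule enzyme gene, was higher, and the 5 summed to 9514 to 16050.5 in CD117pos and 13369 to 15283 in CD117neg arrays.

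Of the 21 probe sets, 15 were lower and 0 were higher in CD117pos cells at an adjusted p under 0.05 in limma. Over all probe sets that threshold called 10.9% lower and 5.6% higher. The 15 lower probe sets belonged to 7 genes, which are Ahnak, Anxa1, Anxa2, Anxa4, Anxa5, Anxa6 and Anxa7. Anxa3 had none. The other 6 were Anxa3, 1 of the 4 Anxa6 probe sets, and 4 dim probe sets of Ahnak (3) and Anxa2 (1). In 16 of the 21 probe sets all CD117pos arrays lay below all CD117neg arrays, which held for 15.0% of all probe sets, and the reverse order held for 0 of the 21 and 8.08% of all. The median log2 difference was -1.40 over the 21 probe sets and -0.02 over all probe sets. Leaving out 1 mouse at a time, the lower count was 9 without _948, 16 without _951, 13 without _952 and 10 without _953. It was 15 with just the CD117pos array of _951 left out. Over all probe sets the lower count was 4892 with every array in. With the mice left out in the same order it was 1894, 5571, 2278 and 2044, and 5963 without that 1 array. Because the genes were chosen for this contrast, their counts carry no weight beside those percentages. Among all calls 34.0% were higher as deposited, 51.4% after quantile normalisation and 45.1% after centring on array medians, and 15 of the 21 were lower under each. In sorted bulk cells, fewer cells of a type and less RNA per cell cannot be told apart.

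**Figure D1:**
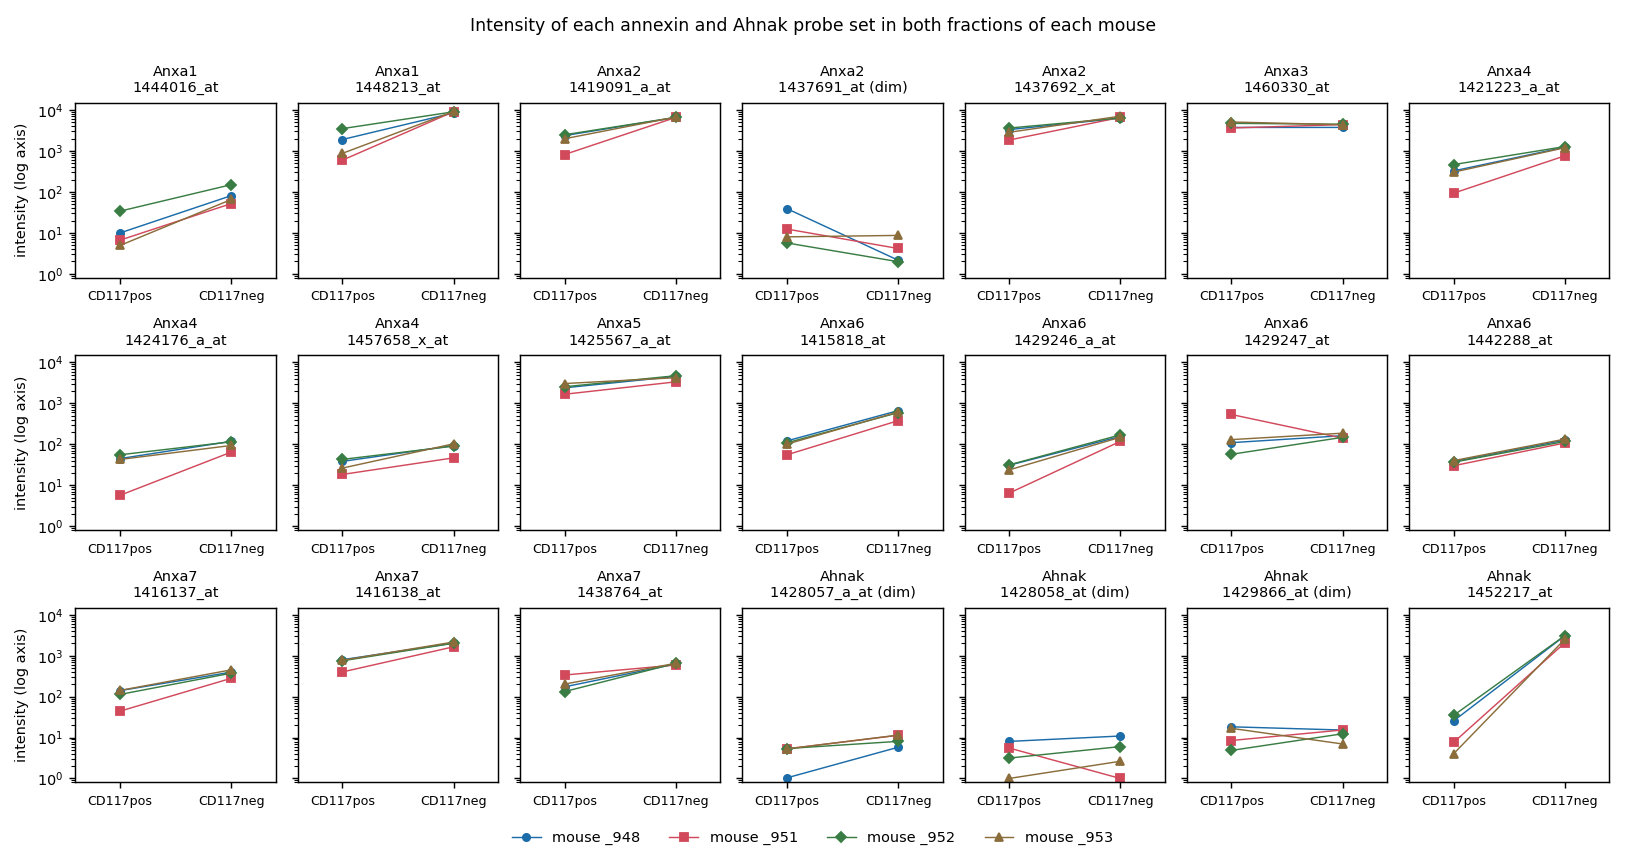
Intensity (log axis) of each of the 21 probe sets, with CD117pos on the left and CD117neg on the right of each panel and 1 line per mouse. Ahnak 1452217_at drops to intensities of 4.01 to 34.8 in CD117pos arrays, while the lines of Anxa3 run flat.

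Ahnak had the largest difference of the set, and it rests on 1 probe set. Probe set 1452217_at measured 25.5, 7.60, 34.8 and 4.01 in the CD117pos arrays of mice _948, _951, _952 and _953, against 3085, 2074, 3116 and 2543 in the CD117neg arrays of the same mice. CD117pos values lay below the array's own median in 3 of the 4 mice, and every CD117neg value was far above all CD117pos values. The log2 difference was -6.41 ± 0.19. Its size is set partly by the pseudocount, since the CD117pos signal is so low, and it was -7.55 with a pseudocount of 1 and -5.08 with 64. Leaving out CD117pos of mouse _951 it was -6.27. The other 3 Ahnak probe sets were dim in both fractions. Probe set 1428057_a_at measured 1.03 to 5.39 in CD117pos and 5.79 to 11.5 in CD117neg arrays, 1428058_at at most 8.05 and 10.9, and 1429866_at 4.85 to 18.3 and 6.97 to 15.3. No direction is given for them, so 1 of 4 Ahnak probe sets carries the gene's value.

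Anxa2 encodes the annexin that forms a tetramer with S100a10 and that Ahnak binds. Probe set 1419091_a_at measured 2373, 819, 2492 and 1991 in CD117pos and 6601, 6626, 6631 and 6753 in CD117neg arrays, in the order of mice above. The CD117neg values were almost equal across mice, and mouse _951 was far below the others in CD117pos. The log2 difference was -1.91 ± 0.28, or -1.54 leaving out CD117pos of mouse _951. Its call ended without mouse _953, where the difference was -1.96. Probe set 1437692_x_at, whose suffix marks shared sequence, measured 3333, 1852, 3635 and 2860.5 in CD117pos and 6353, 6610.4, 6403 and 7093 in CD117neg arrays. Its log2 difference was -1.22 ± 0.19 (-1.02 without CD117pos of _951), and the call ended without mouse _948 or _953 (differences of -1.32 and -1.19). Both bright probe sets kept strong signals in CD117pos cells, at 819 or more. The third, 1437691_at, was dim (5.66 to 39.0 in CD117pos, 1.97 to 8.63 in CD117neg arrays).

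S100a10 itself, the light chain of that complex and no member of the family, was lower on each of its 3 probe sets. Probe set 1456642_x_at measured 222, 74.5, 131 and 78.5 in CD117pos and 2677, 1830, 2616 and 2643 in CD117neg arrays. Its log2 difference was -4.21 ± 0.22 (limma, adjusted p = 0.000564), or -4.03 leaving out CD117pos of mouse _951. The others, 1416762_at and 1439348_at, differed by -4.02 ± 0.19 and -1.72 ± 0.16. S100a11, the S100 partner of annexin A1, had no probe set assigned to that symbol alone.

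Anxa1 encodes annexin A1, which is stored in myeloid cells and acts on formyl peptide receptors when released. Probe set 1448213_at measured 1903, 595, 3514 and 873 in CD117pos and 8503, 9131, 9082 and 9234 in CD117neg arrays. The highest CD117pos value was 5.91 times the lowest, against 1.09 times in CD117neg arrays, and no values overlapped. The log2 difference was -2.70 ± 0.42, with -2.15, -3.90, -1.37 and -3.38 in mice _948, _951, _952 and _953. Leaving out CD117pos of mouse _951 gave -2.31, and the call ended without mouse _948 or _953 (differences of -2.88 and -2.47). The second probe set, 1444016_at, was weak, at 9.93, 6.62, 33.8 and 4.91 in CD117pos against 81.1, 51.8, 150.3 and 65.3 in CD117neg arrays. There mouse _952 was highest in both fractions, and CD117pos values lay below the array median in 3 of 4 arrays. The log2 difference of -1.80 ± 0.12 was -2.83 with a pseudocount of 1 and -0.93 with 64.

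Anxa5 encodes the annexin used as a probe for phosphatidylserine on dying cells. Its only probe set, 1425567_a_at, measured 2397, 1671, 2547 and 3049.9 in CD117pos and 4546, 3355, 4739 and 4240 in CD117neg arrays. Mouse _951 was lowest in both fractions. The log2 difference of -0.82 ± 0.14 was the smallest of the 15 called, and the call ended without mouse _948 or _952 and with a pseudocount of 1 (differences of -0.79, -0.80 and -0.82). Leaving out CD117pos of mouse _951 it was -0.66, and with both arrays of that mouse left out -0.76.

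Promoter windows were looked up in RefSeq (GRCm38.p6), which held them for Anxa1, Anxa2, Anxa4, Anxa5, Anxa7, Anxa11 and Ahnak and not for Anxa3 or Anxa6. The windows run from 250 bases before to 50 after the annotated start, on the gene's strand. Those of Ahnak, Anxa1, Anxa2 and Anxa5 are printed, because these genes span the largest and the smallest of the differences called. Capitals mark matches, on either strand, to the TATA box, Sp1 and AP-1 motifs spelled out after the sequences, none of which overlap there.
Ahnak, chr19:8989034-8989333, plus strand: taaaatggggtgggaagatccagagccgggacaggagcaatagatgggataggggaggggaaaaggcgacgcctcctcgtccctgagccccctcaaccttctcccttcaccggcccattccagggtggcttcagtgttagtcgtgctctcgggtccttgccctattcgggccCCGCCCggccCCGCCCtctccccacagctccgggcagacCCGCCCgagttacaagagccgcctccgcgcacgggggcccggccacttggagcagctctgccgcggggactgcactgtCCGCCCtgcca
Anxa1, chr19:20390622-20390921, minus strand: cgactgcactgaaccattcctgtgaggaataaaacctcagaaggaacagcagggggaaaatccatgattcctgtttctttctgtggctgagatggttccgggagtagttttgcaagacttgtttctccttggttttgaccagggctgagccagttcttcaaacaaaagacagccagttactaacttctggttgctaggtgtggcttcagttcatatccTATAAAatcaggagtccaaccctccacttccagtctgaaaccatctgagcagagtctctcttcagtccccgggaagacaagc
Anxa2, chr9:69453433-69453732, plus strand: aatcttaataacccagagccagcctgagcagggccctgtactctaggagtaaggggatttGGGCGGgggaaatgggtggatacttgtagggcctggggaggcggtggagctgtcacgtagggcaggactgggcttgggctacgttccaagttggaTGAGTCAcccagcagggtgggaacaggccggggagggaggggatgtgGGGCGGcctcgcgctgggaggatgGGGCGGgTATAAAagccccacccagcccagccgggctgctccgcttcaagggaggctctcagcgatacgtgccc
Anxa5, chr3:36475838-36476137, minus strand: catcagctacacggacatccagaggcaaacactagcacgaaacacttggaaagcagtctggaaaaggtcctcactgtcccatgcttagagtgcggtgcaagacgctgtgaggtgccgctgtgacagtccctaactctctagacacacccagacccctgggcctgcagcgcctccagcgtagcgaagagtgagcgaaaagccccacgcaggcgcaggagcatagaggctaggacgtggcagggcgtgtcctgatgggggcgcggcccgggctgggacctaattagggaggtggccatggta
TATAAA was found in Anxa1, starting 32 bases before the annotated start, and in Anxa2, 17 bases before it, and in 13.6% of the 32851 windows of the table. GGGCGG, the core of the Sp1 motif, matched 4 times in Ahnak, 3 times in Anxa2 and in neither of the others, against 35.7% of all windows with a match. TGAGTCA, an AP-1 motif, matched once in Anxa2, against 5.202% of all windows, and CCAAT matched in none of these 4, against 37.4%. Ahnak's window had 67.3% G and C and 22 CpG, Anxa2's 63.7% and 13, Anxa5's 60.3% and 16 and Anxa1's 47.3% and 3, where the median of all windows was 52.7% and 7 CpG. The matches describe these letters, and no bound factor was measured.

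Anxa4 encodes annexin A4, studied mostly in epithelia, and all 3 of its probe sets were lower in CD117pos cells. The brightest, 1421223_a_at, measured 326, 93.0, 465 and 304 in CD117pos and 1237, 763, 1284 and 1200.0 in CD117neg arrays. Mouse _951 was lowest in both fractions. The log2 difference was -2.02 ± 0.24, or -1.57 leaving out CD117pos of mouse _951, a fit without pairing. With both arrays of that mouse left out and the others paired it was -1.74. Probe sets 1424176_a_at and 1457658_x_at, weaker in both fractions, differed by -1.20 ± 0.20 and -1.06 ± 0.15. With a pseudocount of 64 these were -0.69 and -0.62, and without CD117pos of _951 -0.82 and -0.91. The call of 1424176_a_at ended in 5 of 12 alternative settings, and that of 1457658_x_at without mouse _948 (a difference of -1.07).

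Anxa6 encodes annexin A6, which has a duplicated core and is known from endosomes and cholesterol handling, and its probe sets disagreed. Probe set 1415818_at measured 121, 55.1, 108 and 101 in CD117pos and 664, 377, 592 and 615 in CD117neg arrays. The log2 difference of -2.38 ± 0.11 was nearly the same in each mouse, from -2.47 to -2.29. Probe sets 1429246_a_at and 1442288_at differed by -2.12 ± 0.16 and -1.40 ± 0.11, or by -1.29 and -0.89 with a pseudocount of 64. The fourth, 1429247_at, measured 109, 535, 56.9 and 130.1 in CD117pos and 162, 141, 148 and 187 in CD117neg arrays. Here mouse _951 was by far the highest in CD117pos, although it was the lowest on the other 3 probe sets. Its log2 difference was -0.08 ± 0.48 over all mice, -0.67 leaving out CD117pos of mouse _951 and -0.72 without the mouse, where it passed the threshold. Of the 6 stromal markers, Pdgfrb and Col1a2 stood at 551 and 165 in the CD117pos array of mouse _951, where the remaining CD117pos arrays had 12.3 to 24.1 for Pdgfrb and 46.7 to 58.2 for Col1a2. Col1a1, Col3a1, Dcn and Lum were dim. Of the 6 T cell markers, Thy1 stood at 245 there and at 12.8 to 28.7 in the rest, and the other 5 were dim. Their part in the 1429247_at value was not tested.

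Anxa7 encodes annexin A7, or synexin, known for aggregating membranes, and its 3 probe sets gave close differences. Probe set 1416138_at measured 799, 401, 751 and 774 in CD117pos and 2035, 1653, 2021 and 2161 in CD117neg arrays. The log2 difference was -1.55 ± 0.15, or -1.32 leaving out CD117pos of mouse _951. Probe set 1416137_at differed by -1.72 ± 0.18 (-1.39 without CD117pos of _951) and 1438764_at by -1.59 ± 0.23. In 1438764_at mouse _951 had the highest CD117pos value, 338 against 133 to 203, and the smallest difference (-0.79), whereas in the other 2 probe sets it had the lowest value and the largest difference. The call of 1438764_at ended without mouse _948 or _953 (differences of -1.52 and -1.58).

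Anxa3, whose protein in humans is abundant in neutrophils, was bright in both fractions and was the 1 gene with no probe set called. Its only probe set, 1460330_at, measured 3767, 3649, 4745 and 5112 in CD117pos and 3769, 4413, 4503 and 4397 in CD117neg arrays. All CD117neg values lay within the range of the CD117pos values. Its log2 difference was 0.00 ± 0.13, with 0.00, -0.27, 0.08 and 0.22 in mice _948, _951, _952 and _953. Over the other settings it lay between -0.07 and 0.19, and it passed in none of the 13. A p that misses the threshold does not show equal levels.

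**Figure D2:**
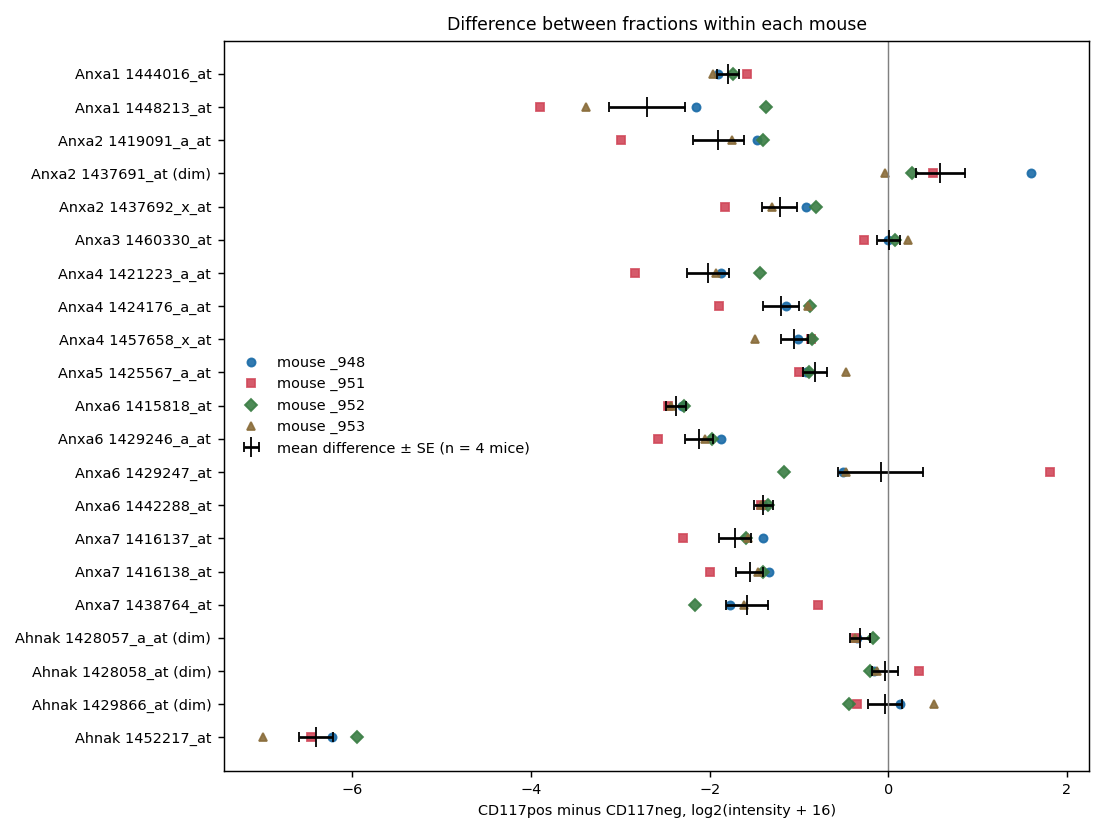
CD117pos minus CD117neg difference in log2(intensity + 16) of each probe set, with 1 symbol per mouse and the mean ± SE over the 4 mice in black. Ahnak 1452217_at lies at -6.41, Anxa3 at 0.00, and mouse _951 lies far from the other mice on Anxa2 1419091_a_at and Anxa6 1429247_at.

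Intensities of the set varied more between mice in the CD117pos than in the CD117neg fraction. Probe sets whose mean reached 30.3 in both fractions were compared, a choice made after the values were seen, to leave out probe sets at background. Single arrays can still lie near it, as Anxa4 1424176_a_at did at 5.66 in CD117pos of mouse _951. Over the 14 of the 21 that did, the median SD over mice was 0.49 in CD117pos and 0.16 in CD117neg arrays (log2 scale), and it was larger in CD117pos for 13. Over all 21002 such probe sets the medians were 0.28 and 0.20, and the SD was larger in CD117pos for 69.1%. Without mouse _951 the medians of the 14 were 0.18 and 0.08, with a larger SD in CD117pos for 11, against 0.17 and 0.17 and 51.6% over all. For Anxa2 1419091_a_at the SD was 0.74 in CD117pos and 0.01 in CD117neg arrays. The 21002 probe sets were not matched to the 14 in intensity or in direction of the difference. Several of the 14 belong to the same gene and are no independent cases. The genes were chosen on the difference between fractions, and what that choice contributes to the spread was not tested.

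**Figure D3:**
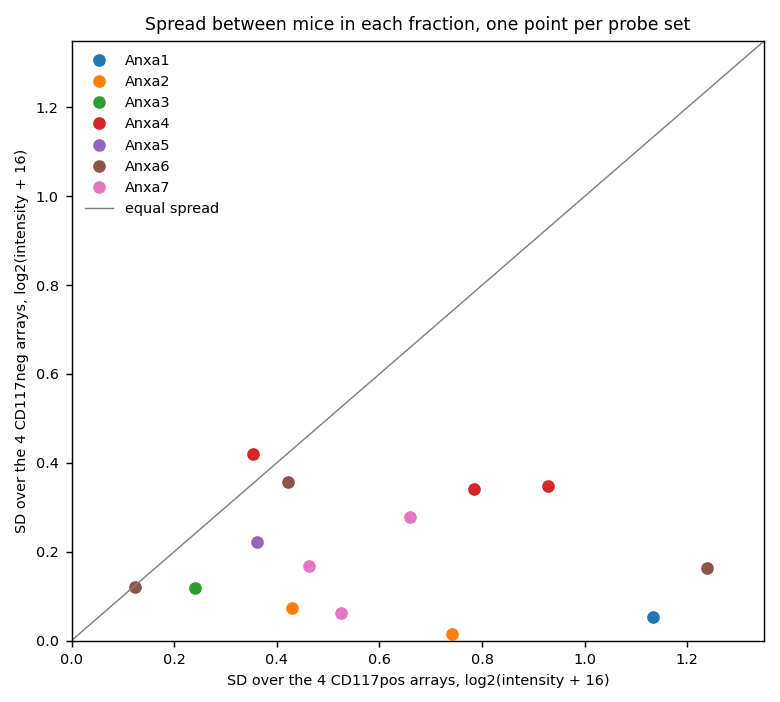
SD between mice of log2(intensity + 16) in CD117pos arrays (horizontal) against CD117neg arrays (vertical) for the 14 probe sets whose mean reached 30.3 in both fractions, coloured by gene. Points under the diagonal varied more in CD117pos, as 13 of the 14 did.

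Differences between mice were not themselves used to choose the genes and were tested with a moderated F-test of the mouse terms in the same limma fit. That test divides by the same residual variance as the fraction contrast on which the genes were chosen. Its counts are therefore not free of that choice and are read as a description. None of the 21 probe sets passed after adjustment over all probe sets (lowest adjusted p = 0.5), and 0 of all 45037 did, which is 0.0%. At an unadjusted p under 0.05 there were 8 of the 21, against 6.66% of all probe sets, dim ones included. They were Anxa1 1444016_at, Anxa6 1415818_at and 1429246_a_at, all 3 of Anxa4, Anxa7 1416137_at and Ahnak 1452217_at. Probe sets of 1 gene share their target and are no independent cases. Of the 15 probe sets lower in CD117pos cells, mouse _951 had the lowest CD117neg value in 12 and the lowest CD117pos value in 12. Over all probe sets called lower, that mouse was lowest in CD117neg for 32.1% and in CD117pos for 54.4%.

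Most measured markers of maturing myeloid cells were lower in CD117pos cells on the same contrast. Over all named genes, each by its brightest probe set, 12.9% passed as lower. The 7 measured markers of mature monocytes and macrophages summed to 822 to 4735 in CD117pos and 20335 to 26005 in CD117neg arrays, and 6 of 7 passed as lower. The 7 of mature neutrophils summed to 12360.5 to 25019 in CD117pos and 45158 to 50399 in CD117neg arrays, and 6 of 7 passed as lower. Mouse _951 gave the lowest CD117pos value of both the monocyte and the neutrophil sums. Endothelial markers summed to 102 to 121 in CD117pos and 150.1 to 163 in CD117neg arrays, and 1 of 5 (Pecam1) was lower and 2 were dim. Stromal markers summed to 114 to 134 in 3 CD117pos arrays, 780.1 in that of mouse _951 and 159 to 232 in CD117neg arrays, and 0 of 6 passed. Pdgfrb and Col1a2 made up most of the 780.1, and Col1a1, Col3a1 and Dcn lay within the range of the other CD117pos arrays. Of 6 B cell markers 1 passed as lower (Cd22) and 2 were dim, with sums of 141 to 299 in CD117pos and 474 to 730.2 in CD117neg arrays. Cd22, at 8.80 to 22.5 in CD117pos and 238 to 429 in CD117neg arrays, made up most of the gap between these sums. Of 6 T cell, 4 NK cell, 5 platelet and 5 erythroid markers 0 passed, and 5, 3, 3 and 4 of them were dim. What any of these cell types contribute to the annexin and Ahnak values was not tested.

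Known partners and relatives were taken from lists based on textbook roles, chosen with earlier results of these data known. Their counts are therefore a description. Most genes named from them are those with the largest differences, so a p printed for such a gene is a description too. Of 81 measured genes on them, 30 were lower and 2 higher in CD117pos cells (limma, adjusted p under 0.05), with a median log2 difference of -0.43. Over all 18193 named genes, each by its brightest probe set and dim ones included, 12.9% were lower and 7.53% higher. Of the 81 partner genes, 20 were dim. Of 6 measured S100 partners 5 were lower and 0 higher, with a median of -3.04. S100a6, which binds annexins A2 and A11, measured 34.8, 11.3, 33.1 and 8.89 in CD117pos and 4636, 3248, 3963 and 4702 in CD117neg arrays, a log2 difference of -6.83 ± 0.22 (limma, adjusted p = 0.000183). S100a4 differed by -5.09 ± 0.15 and S100a9, a calprotectin subunit, by -1.88 ± 0.36 (-1.42 without CD117pos of _951), a call lost without mouse _948 or _953 and at a pseudocount of 1.

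Of 7 genes tied to annexin A1 signalling, 4 were lower and 1 was higher. Fpr2, the formyl peptide receptor through which annexin A1 acts, measured 261, 85.3, 649 and 118 in CD117pos and 7080.1, 7667, 7681 and 7869.5 in CD117neg arrays. Its log2 difference was -5.08 ± 0.45 (limma, adjusted p = 0.00237), or -4.70 leaving out CD117pos of mouse _951. As on Anxa1 1448213_at, mouse _952 had the highest CD117pos value and mouse _951 the lowest. Alox5, the 5-lipoxygenase gene, differed by -2.58 ± 0.18, Tsc22d3, a glucocorticoid-induced gene, by -1.44 ± 0.15 and Nr3c1, the glucocorticoid receptor gene that induces Anxa1, by -0.90 ± 0.11. The higher one, named after its value was seen, was Pla2g4a, the cytosolic phospholipase A2 gene, at 0.54 ± 0.12 (limma, adjusted p = 0.0313), a call that ended in 6 of 12 other settings.

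Of 16 membrane repair genes 6 were lower and 0 higher. Capn2, a calpain gene, measured 24.3, 12.1, 29.5 and 10.9 in CD117pos and 878, 339, 794 and 711 in CD117neg arrays, a log2 difference of -4.26 ± 0.20 (limma, adjusted p = 0.000382). Myof, the myoferlin gene, differed by -2.61 ± 0.47 (-4.71 with a pseudocount of 1, -1.37 with 64), Capn1 by -1.38 ± 0.15 and Pdcd6ip, the ALIX gene, by -0.88 ± 0.16. The Myof and Pdcd6ip calls ended without mouse _948, _952 or _953, and that of Pdcd6ip also with a pseudocount of 1. Of 14 genes of cortical actin and its links to the membrane 6 were lower and 0 higher. Ezr, the ezrin gene, differed by -2.95 ± 0.40, Flna by -1.52 ± 0.29 (-1.15 without CD117pos of _951), Vim by -1.48 ± 0.18 and Msn, the moesin gene, by -1.25 ± 0.15, with the Ezr call lost without mouse _948 and the Flna call without _948, _952 or _953 or with a pseudocount of 1.

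Of 21 genes of phosphatidylserine exposure and recognition 7 were lower and 0 higher. They included the matrix protein gene Thbs1 (-4.18 ± 0.18), the receptor gene Cd300lf (-3.71 ± 0.56, or -3.005 without CD117pos of _951, lost without mouse _953), the bridging protein gene Mfge8 (-1.85 ± 0.24) and the integrin gene Itgb5 (-1.75 ± 0.38, or -1.26 without that array, lost without mouse _948, _952 or _953 or with a pseudocount of 1). Of 7 plasminogen system genes 2 were lower, Plaur (-1.66 ± 0.12) and Plgrkt (-0.73 ± 0.14, lost in 4 of 13 other settings), and the 1 called higher, Hpn, was dim. Of 7 listed partners and relatives of Ahnak 0 passed in limma, among them Ahnak2, which was dim. Cacnb1, a calcium channel subunit gene, had the largest of their differences at 0.69 ± 0.69, or -0.20 leaving out CD117pos of mouse _951. Of 4 other annexin genes 0 passed in limma. Anxa8, Anxa10 and Anxa13 were dim, and Anxa9 measured 128, 91.2, 70.5 and 71.7 in CD117pos and 64.02, 78.6, 39.0 and 43.6 in CD117neg arrays, a log2 difference of 0.56 ± 0.15 (limma, adjusted p = 0.0532). Anxa9 was higher in CD117pos in each mouse, and it passed in 4 of 12 other settings, after quantile normalisation and centring among them, while a pseudocount of 64 gave 0.36.

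**Figure D4:**
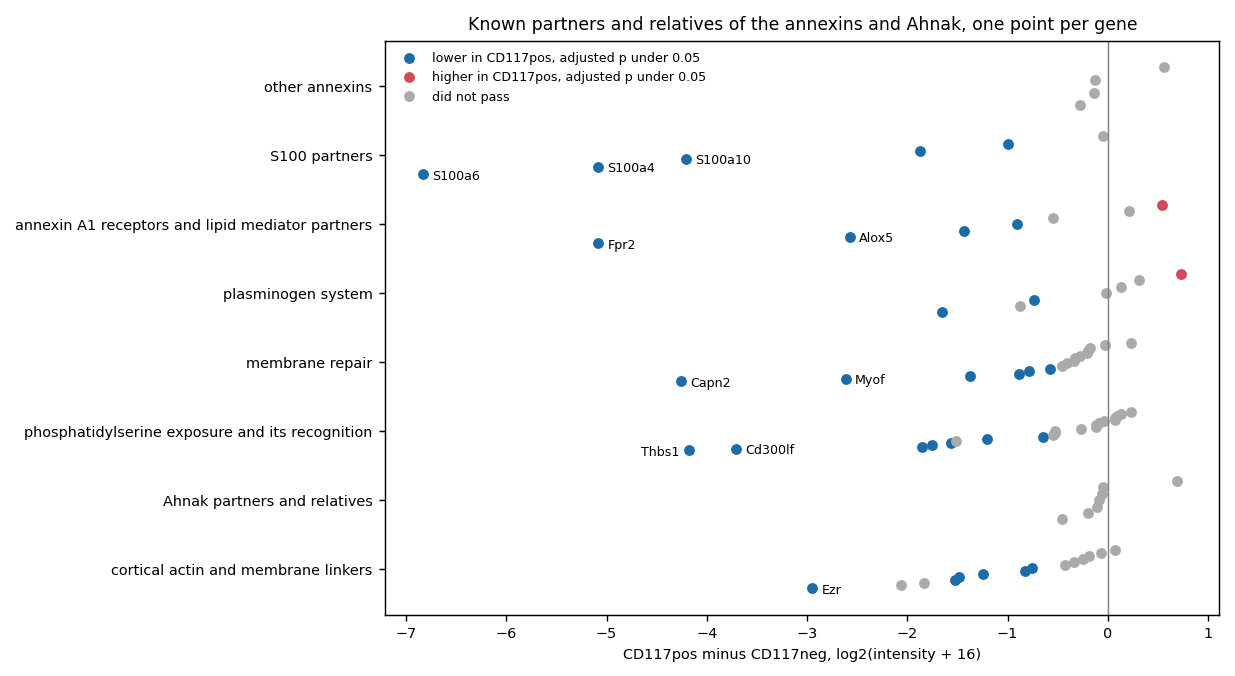
CD117pos minus CD117neg difference in log2(intensity + 16) of 81 partner genes by list (S100b stands on 2 lists), blue where lower and red where higher at an adjusted p under 0.05, grey where the gene did not pass. S100a6, S100a4, Fpr2, Capn2, S100a10 and Thbs1 lie below -4.

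The genes whose 8 values lay nearest to those of Ahnak 1452217_at, each gene centred on its own mean, were S100a6, Slfn1, Mmp8, Dusp16 and Klf4. Their root mean square distances over the 8 arrays were 0.27, 0.28, 0.36, 0.43 and 0.43 on the log2 scale, among 18193 genes. Mmp8 and Klf4 stand on the marker lists of mature neutrophils and of mature monocytes above. For Anxa2 1437692_x_at, its brightest probe set, the nearest were Myo9b, a myosin gene, Tbc1d14, Rabep2, Acaa1a and Tgfbr1, at distances of 0.08, 0.10, 0.10, 0.11 and 0.11. Those 5 share with Anxa2 a low CD117pos value in mouse _951, such as 311 for Myo9b against 515 to 718 in the other CD117pos arrays and 1144 to 1358 in CD117neg arrays. The measure rewards an equal difference between fractions, so it describes size and spread alone.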

How the data were processed

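The authors deposited 1 intensity per probe set and array on a linear scale. Per the labels' protocols, polyA RNA went through 2 amplification cycles and biotin labelling before hybridisation to 1-colour Affymetrix arrays. The summarising software, the scaling between arrays and detection calls have no record in the labels, and values were used as deposited, without a filter. Arrays have no read depth, and their number limits the precision. The lowest value, exactly 1, occurred 841 to 898 times per array.

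All 45037 probe sets other than the 64 controls were fitted with limma 3.58.1 in R 4.3.3 (lmFit, eBayes, two-sided) on log2(intensity + 16), with fraction and mouse as terms and Benjamini-Hochberg adjustment over all of them, and the same code was tested on simulated data. The mouse is a block because each mouse gave both fractions. Deviations of its 2 arrays from their fraction means correlated across probe sets at 0.181, 0.173, 0.195 and 0.0579 (mouse _948, _951, _952 and _953 in turn), against at most 0.0184, 0.00421, 0.0484 and 0.115 with another mouse. Figures used matplotlib 3.10.9 in Python 3.11.15.

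Platform annotation gave 34945 probe sets 1 symbol, 932 several and 9160 none, and 34741 identifiers matched RefSeq (GRCm38.p6), with 0 symbols changed. Partner and marker genes are represented by the probe set with the highest mean. From each partner list up to 4 genes with the largest difference past the threshold are named, or the largest where none passed, and the 5 genes nearest to Ahnak and to Anxa2. The members and lists were chosen with earlier results of these data known. Alternatives were other pseudocounts, quantile normalisation, centring, a filter at a mean of 50, no block, an intensity trend and each mouse left out. Further ones were the CD117pos array of mouse _951 left out, fitted with no block, and no probe sets of shared sequence. That last setting dropped every probe set with a letter before _at in its name, those ending in _a_at included.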

Additional observations from a re-analysis of the deposited data

Results flagged for a closer look

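In 5 of 42 groups of 4 arrays (21 probe sets, 2 fractions), 1 array lay so far from the other 3 that the gap exceeded Dixon's critical share of the group's range, on the log2 scale. Chance gives this for about 1 in 20 groups. In 3 of the 5 the array was of mouse _951 and the lowest. In CD117pos arrays these were Anxa4 1424176_a_at, at 5.66 against 42.6 to 55.4, and Anxa7 1416138_at, at 401 against 751 to 799. In CD117neg arrays it was Anxa4 1421223_a_at, at 763 against 1200.0 to 1284. Mouse _948 was the lowest in the other 2, Anxa3 1460330_at in CD117neg arrays, at 3769 against 4397 to 4503, and the dim Ahnak 1428057_a_at in CD117pos arrays, at 1.03 against 5.28 to 5.39.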

How the results depend on the processing

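The 15 lower probe sets became 13 with a pseudocount of 1 and 14 with no replicate block. They stayed at 15 under the other scalings, the trend and the filter. Over the arrays left out they ranged from 9 (without mouse _948) to 16 (without mouse _951). Without probe sets of shared sequence they were 8, where fewer are tested. That setting also drops probe sets ending in _a_at, the only one of Anxa5 among them. It therefore does not show that the lost calls rest on shared sequence. The 0 higher and, where it could be fitted, the 0 that differ between mice held in each setting. The median difference of -1.40 became -1.66 and -0.93 with pseudocounts of 1 and 64, -1.28 after quantile normalisation, -1.59 with the filter, -1.55 without shared sequence and -1.40 to -1.32 over the arrays left out. The 30 lower partner genes ranged from 16 (without mouse _948) through 17 (without _953) to 34 over the arrays left out and were 16 without shared sequence. The 2 higher became 0 with a pseudocount of 1 or without shared sequence, 1 without the block, and 0 to 3 over the arrays left out. Over all probe sets, 4892 lower and 2524 higher became 2930 and 1134 with a pseudocount of 1, 3723 and 3945 after quantile normalisation, and 1894 to 5963 and 456 to 3900 over the arrays left out. Of 261 recomputed member differences 244 kept their side of the threshold, 16 lost the call, 1 gained it and 0 called ones reversed. Differences near 0 that were not called changed sign in some settings, such as that of Anxa6 1429247_at (-0.08, and 0.28 without mouse _952). The causes were not tested.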
